A study of Homo sapiens with 6 samples.

Results

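The mitochondrial ribosomal proteins were followed as 74 genes of the 17687 measured, 47 named MRPL and 27 named MRPS. They were taken by symbol, as every probe set whose gene symbol is MRPL or MRPS followed by a digit, and each gene had 1 probe set. All 6 samples were human MDA-MB-231 breast cancer cells of the 4175 variant, a line selected for lung metastasis. In 3 samples the cells received a control siRNA (sicontrol 1 to 3), and in 3 an siRNA directed at PGC-1alpha, the product of PPARGC1A (siPGC1alpha 1 to 3). Treatment began 24 hours after the cells were plated and lasted 48 hours. Transcripts were read on single-colour Affymetrix arrays after low-input labelling of 10 ng of total RNA, as log2 signals, so that a difference of 1 is a ratio of 2. The question the comparison addresses is whether these transcripts change when PGC-1alpha is targeted. Nothing in the labels says that the numbered samples of a group were separate cultures, so that p-values reflect only how far these arrays differ, and part of that may be technical. Of the 77 protein-coding genes with such a symbol in RefSeq, MRPL45, MRPL53 and MRPS6 were not analysed here.

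As background, mitochondria carry ribosomes of their own, which translate the few respiratory chain subunits that mitochondrial DNA encodes. The ribosomal RNAs come from that DNA, whereas every mitochondrial ribosomal protein is encoded in the nucleus, made in the cytosol and imported. A small subunit decodes the messenger RNA and a large subunit forms the peptide bond and releases the chain at the inner membrane. PGC-1alpha is a transcriptional coactivator that raises mitochondrial gene expression with nuclear factors such as NRF1, GABP and ERRalpha. Some members descend from bacterial ribosomal proteins and others were added to the particle in mitochondria. A gene symbol does not always give the subunit: MRPS18A and MRPS30 proteins sit in the large subunit of the human particle.

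The array of siPGC1alpha 1 stood apart from the others. Over all 17687 genes it correlated with the other arrays at a Pearson r of 0.585 to 0.604, across genes, which are not independent replicates. Over the 74 members the range was 0.365 to 0.419, against 0.989 to 0.996 among the other 5. Each comparison is therefore given over 6 arrays and over the 5 without siPGC1alpha 1. The siRNA target did not read lower on any siPGC1alpha array than on the lowest control array: PPARGC1A read 6.45, 6.49 and 6.49 on the control arrays, 6.52 and 6.47 on siPGC1alpha 2 and 3, and 7.95 on siPGC1alpha 1. Without siPGC1alpha 1 its difference was 0.019 (SE 0.071), so siPGC1alpha is used below as the label of the arrays, on which a lower target transcript was not seen. PPARGC1A had a control mean of 6.48, below the median of 7.28 over all genes, and whether its probe set could show a fall was not tested. On siPGC1alpha 1 it lay 1.47 above that mean, where genes with a control mean under 7 had a median of 1.23. Markers of the mesenchymal line read high on the controls, with a median level of 11.37 over 7 genes and VIM, vimentin, at 12.80. CDH1 (E-cadherin) and PGR (progesterone receptor), which this line is known to lack, read 3.97 and 2.76, beside a negative control median of 3.44, 3.27 and 3.37 on the control arrays. The luminal or epithelial list as a whole was not near background: its 10 genes had control means from 2.76 to 11.61 with a median of 7.02. CDH1 and PGR were its lowest genes. The keratins KRT8, KRT18 and KRT19 read 11.61, 11.19 and 9.40. The rest of the list, GRHL2, ESR1, CLDN4, EPCAM and GATA3, read 4.90, 5.99, 6.61, 7.43 and 7.83.

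Mitochondrial ribosomal protein transcripts gave signals in the upper part of the array's range in control cells. Their control means ran from 6.42 to 11.36 with a median of 9.20, against a median of 7.28 over all genes. All 74 members lay above 5.11, the largest ERCC spike-in median of a control array, and 71 lay above the median of all genes. The lower quartile over all genes, 5.70, also lay above 5.11, so most genes passed that mark. The mark is not a background level, as negative control medians were 3.27 to 3.44 on the control arrays. Signals of different probe sets depend on the probes as well as on the transcript, so these ranges are not an order of abundance.

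Large and small subunit genes covered nearly the same range of signal. The 47 MRPL genes had a median control level of 9.18, with quartiles of 8.33 and 9.73 and an SD over genes of 0.96. The 27 MRPS genes had a median of 9.26, quartiles of 8.11 and 10.09 and an SD over genes of 1.16. The gap between the medians was small beside the spread over genes of either subunit. With MRPS18A and MRPS30 counted in the large subunit, where their proteins sit, the medians were 9.22 and 9.12, so that the order of the 2 medians turned with the placing of these genes. The 46 genes with a bacterial homologue had a median of 9.24 and the 27 specific to mitochondria 8.997, with MRPS28 left unclassed.

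Control means are given here with the SD over the 3 control arrays. In the large subunit the highest belonged to MRPL51 and MRPL37, both mitochondria-specific proteins, and to MRPL9, the homologue of bacterial L9, at 11.16 ± 0.074, 10.99 ± 0.065 and 10.70 ± 0.059. The lowest belonged to MRPL33, a homologue of bacterial L33 (6.64 ± 0.25), to the mitochondria-specific MRPL39 (7.83 ± 0.11) and to MRPL23, the homologue of the exit tunnel protein L23 (7.83 ± 0.10). MRPL33 varied most among these, from 6.48 to 6.93 over the control arrays. Among the MRPS genes the highest were MRPS2, a homologue of bacterial S2 (11.36 ± 0.15), MRPS30, placed here by symbol (10.33 ± 0.045), and MRPS21, a homologue of bacterial S21 (10.23 ± 0.042). The lowest were MRPS31 (6.42 ± 0.28), MRPS33 (7.17 ± 0.22) and MRPS28 (7.43 ± 0.084). MRPS12, which lines the decoding centre, had 7.74 ± 0.10. RefSeq lists named pseudogenes for 38 of the 74 members, 94 in all, most for MRPS21 (9) and MRPL57 (8), and whether a probe set also reads such copies was not tested.

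**Figure D1:**
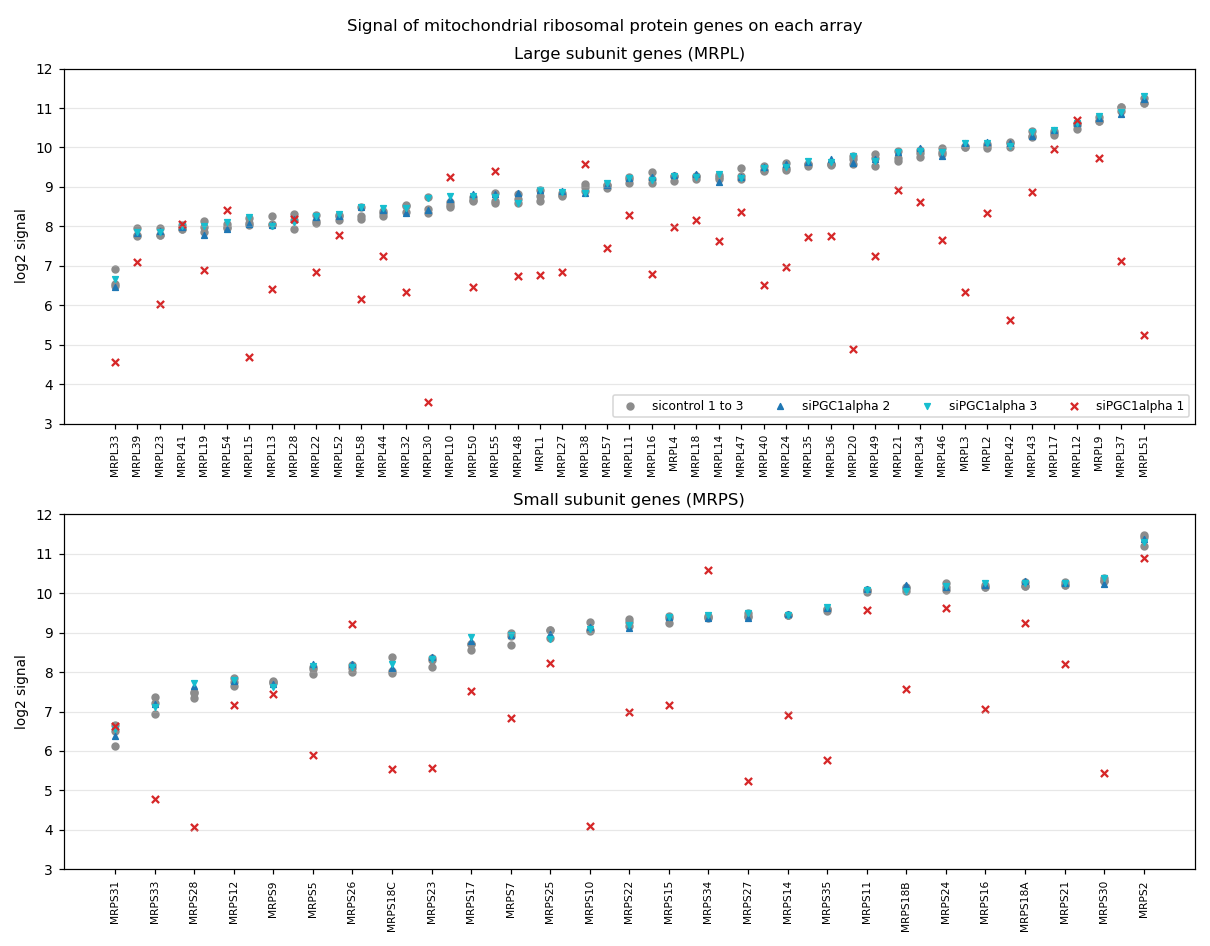
Log2 signal (vertical axis) of each mitochondrial ribosomal protein gene on each of the 6 arrays, large subunit above and small subunit below, ordered by control mean from 6.42 (MRPS31) to 11.36 (MRPS2). Grey points are the 3 control arrays, blue and cyan triangles siPGC1alpha 2 and 3, which lie on or beside them, and red crosses siPGC1alpha 1, which lies below every control array for 64 of the 74 genes.

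Promoters of the members were read for letters bound by NRF1, GABP and ERRalpha, factors with which PGC-1alpha works. The YY1 letters and the E-box were read as other motifs. RefSeq promoters of build GRCh38.p14, from 250 bases before to 50 after the start, were at hand for 66 members. MRPL2, MRPL10, MRPL13, MRPL15, MRPL21, MRPL23, MRPL35 and MRPS28 had no entry. The core of GABP and other ETS factors, CCGGAAG on either strand, was in 28 of 66 member promoters (42.4%), against 14.3% of the 14250 measured genes with a promoter. It was in 16 large subunit and 12 small subunit promoters. The letters of YY1, AAGATGGCG, were in 13 (19.7% against 2.79%), and those of NRF1, GCGCATGC, in 6 (9.09% against 4.25%). The ERRalpha letters AAGGTCA were in 3 (4.55% against 3.11%) and the E-box CACGTG in 5 (7.58% against 8.69%). Both strands were searched, matches of different motifs overlapped in 0 member promoters, and the first start listed for a gene was used. With any listed start counted, the E-box was in 8 (12.1% against 10.8%), so its order turned, while the other motifs kept theirs. These shares are descriptions, and a match of letters does not show that a factor binds.

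Promoters of 5 members are printed 5′ to 3′ on the strand of the gene, with every match to the motifs in capitals, to show how the letters are placed. MRPS18C, a homologue of bacterial S18 (chr4:83455808-83456107, plus strand), holds the ETS core from position -222, counted from the start, the E-box from -179 and the NRF1 letters from -136. MRPL52, of the large subunit (chr14:22829637-22829936, plus strand), holds NRF1 letters from -175, the YY1 letters from -98 and from -64, and the ETS core from -5. MRPS21 (chr1:150293611-150293910, plus strand) holds the ERRalpha letters from -233 and the ETS core from -11 and from 8. MRPS10, the homologue of bacterial S10 (chr6:42217812-42218111, minus strand), holds the ETS core from -22 and the YY1 letters from 10. MRPS34, a mitochondria-specific small subunit protein (chr16:1773085-1773384, minus strand), holds the ETS core from -71, -29 and -19. The last 2 are shown because both hold the ETS core and because their differences from the control mean on siPGC1alpha 1 were the lowest and the highest of the small subunit.
MRPS18C: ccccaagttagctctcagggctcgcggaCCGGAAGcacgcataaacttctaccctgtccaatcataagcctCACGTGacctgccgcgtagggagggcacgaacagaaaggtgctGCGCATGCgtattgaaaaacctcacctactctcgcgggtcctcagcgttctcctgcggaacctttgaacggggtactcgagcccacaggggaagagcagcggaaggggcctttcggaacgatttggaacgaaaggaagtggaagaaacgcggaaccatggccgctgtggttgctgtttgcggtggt
MRPL52: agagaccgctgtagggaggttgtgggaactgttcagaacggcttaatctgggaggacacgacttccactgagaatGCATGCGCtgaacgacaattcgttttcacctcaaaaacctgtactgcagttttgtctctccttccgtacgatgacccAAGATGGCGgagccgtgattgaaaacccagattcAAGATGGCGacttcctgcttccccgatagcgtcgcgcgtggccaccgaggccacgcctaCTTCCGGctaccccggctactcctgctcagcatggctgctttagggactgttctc
MRPS21: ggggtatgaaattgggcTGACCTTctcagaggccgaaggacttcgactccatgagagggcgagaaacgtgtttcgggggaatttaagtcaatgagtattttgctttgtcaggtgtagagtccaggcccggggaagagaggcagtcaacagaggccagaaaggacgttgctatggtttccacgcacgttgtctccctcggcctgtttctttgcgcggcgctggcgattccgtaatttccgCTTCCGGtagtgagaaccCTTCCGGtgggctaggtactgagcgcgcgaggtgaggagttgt
MRPS10: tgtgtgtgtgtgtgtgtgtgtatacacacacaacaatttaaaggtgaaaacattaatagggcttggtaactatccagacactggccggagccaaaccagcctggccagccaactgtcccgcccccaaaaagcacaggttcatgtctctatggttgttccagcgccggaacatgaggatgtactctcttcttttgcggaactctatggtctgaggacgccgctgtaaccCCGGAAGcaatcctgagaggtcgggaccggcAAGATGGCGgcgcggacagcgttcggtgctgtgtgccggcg
MRPS34: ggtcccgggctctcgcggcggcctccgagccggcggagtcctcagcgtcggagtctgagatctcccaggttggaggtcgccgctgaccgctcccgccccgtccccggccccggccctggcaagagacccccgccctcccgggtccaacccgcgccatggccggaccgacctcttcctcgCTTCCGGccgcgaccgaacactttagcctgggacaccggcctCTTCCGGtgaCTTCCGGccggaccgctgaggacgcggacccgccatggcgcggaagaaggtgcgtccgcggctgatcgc

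**Figure D2:**
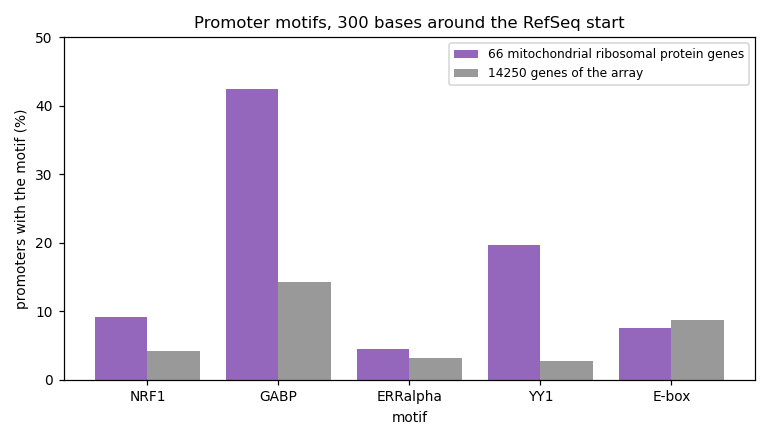
Share of promoters with a match to each motif (vertical axis, %), for the 66 mitochondrial ribosomal protein genes with a RefSeq promoter (purple) and for the 14250 measured genes with one (grey). The ETS core of GABP is in 42.4% of the former and 14.3% of the latter, and the YY1 letters in 19.7% and 2.79%.

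Between siPGC1alpha 2 and 3 and the controls, the members differed by at most 0.26 on the log2 scale in either direction, and none passed the test. The large subunit genes had a median difference of 0.039 and the small subunit genes of 0.034, with 0.0080 over all genes. Of the large subunit genes 35 lay above 0 and 12 below. Of the small subunit genes 19 lay above and 8 below, and over all genes 53.5% lay above. By limma 0 members passed at an adjusted p under 0.05 (background 0% of all genes, lowest adjusted p of a member = 0.9998).

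The spread between the arrays was of the size of these subunit medians. On the control arrays the large subunit lay at a median of 0.022, -0.031 and -0.019 from the control mean, and on siPGC1alpha 2 and 3 at 0.051 and 0.057. The small subunit lay at 0.0049, -0.019 and 0.030 on the controls and at 0.026 and 0.045 on siPGC1alpha 2 and 3. By these medians both siPGC1alpha arrays were above every control array for the large subunit, and siPGC1alpha 2 lay below sicontrol 3 for the small. By means over the genes this turned: in the large subunit siPGC1alpha 2, at 0.022, lay below sicontrol 1, at 0.031. In the small subunit the means of siPGC1alpha 2 and 3, 0.031 and 0.037, both lay above the highest control mean of 0.022. The difference between the subunit medians without siPGC1alpha 1 was 0.0055, within the SD of the same quantity over the control arrays of 0.033. Without sicontrol 2 the small subunit median was 0.0062, and the difference between the subunits was 0.049. No test was made over the members, which are not replicates.

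**Figure D3:**
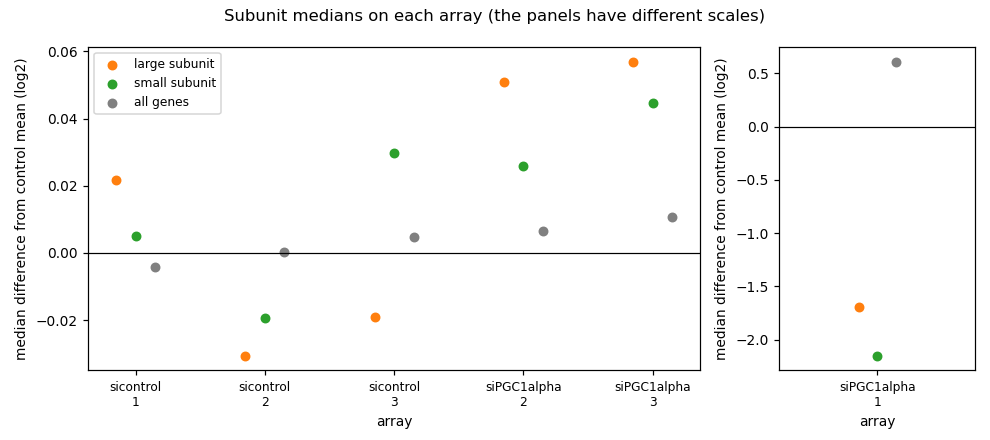
Median over the subunit's genes of the difference from the control mean (vertical axis, log2), for each array, with large subunit genes in orange, small subunit genes in green and all genes in grey. On the left the 2 siPGC1alpha arrays read 0.051 and 0.057 for the large subunit, and on the right, on its own scale, siPGC1alpha 1 reads -1.69 and -2.15 for the subunits and 0.61 for all genes.

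MRPS28, a small subunit protein whose loss is known to impair mitochondrial translation in humans, had the largest difference among the members without siPGC1alpha 1. It read 7.47, 7.34 and 7.50 on the control arrays, 7.65 and 7.73 on siPGC1alpha 2 and 3, and 4.07 on siPGC1alpha 1. Both siPGC1alpha 2 and 3 lay above all controls, and siPGC1alpha 1 far below them, near that array's negative control median of 3.79. The difference without siPGC1alpha 1 was 0.26 (SE 0.083), with a 95% interval of 0.057 to 0.45, and did not pass (limma adjusted p = 0.9998). MRPS28 was the 1 member with an unadjusted p under 0.05 in the higher direction, where 2.11% of all genes were, and 0 members were in the lower direction, against 2.34%.

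In the large subunit the positive differences with the smallest unadjusted p were those of MRPL10, MRPL58, MRPL50 and MRPL1. MRPL10 sits at the base of the stalk that recruits translation factors. It read 8.55, 8.49 and 8.62 on the control arrays, 8.70 and 8.77 on siPGC1alpha 2 and 3, and 9.26 on siPGC1alpha 1. All 3 siPGC1alpha arrays lay above every control array, which held for 1 member of 74, and for 5.42% of all genes in this direction over 6 arrays. Its difference was 0.18 (SE 0.078) over 5 arrays and 0.36 (SE 0.25) over 6, and passed in neither fit. MRPL58, a peptidyl-tRNA hydrolase built into the large subunit, read 8.50, 8.18 and 8.27 on the control arrays, 8.50 and 8.49 on siPGC1alpha 2 and 3, and 6.16 on siPGC1alpha 1. Its siPGC1alpha 2 and 3 values were near that of sicontrol 1 and above those of the other controls, with a difference of 0.18 (SE 0.11). MRPL50, specific to mitochondria, differed by 0.11 (SE 0.074) and MRPL1, of the stalk beside the exit site for transfer RNA, by 0.14 (SE 0.10).

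The other stalk proteins lay nearer their controls. MRPL11, which lies at the stalk base, read 9.20, 9.09 and 9.25 on the control arrays, 9.23 and 9.22 on siPGC1alpha 2 and 3, and 8.29 on siPGC1alpha 1. MRPL12, the stalk protein itself, read 10.47, 10.56 and 10.62 on the control arrays, 10.61 and 10.62 on siPGC1alpha 2 and 3, and 10.69 on siPGC1alpha 1. On siPGC1alpha 2 and 3 both genes lay within their control values or level with the highest, with differences of 0.048 (SE 0.080) and 0.066 (SE 0.079). The test of a difference between these genes and MRPL10 was not made.

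Negative differences in the large subunit were led by MRPL38 and MRPL37, both specific to mitochondria. MRPL38 read 9.08, 8.99 and 8.90 on the control arrays, 8.84 and 8.84 on siPGC1alpha 2 and 3, and 9.58 on siPGC1alpha 1. Thus siPGC1alpha 2 and 3 lay below every control and siPGC1alpha 1 above, and the difference without siPGC1alpha 1 was -0.15 (SE 0.082). MRPL37 read 10.92, 11.03 and 11.03 on the control arrays, 10.84 and 10.89 on siPGC1alpha 2 and 3, and 7.11 on siPGC1alpha 1. Here all 3 siPGC1alpha arrays lay below every control, with differences of -0.12 (SE 0.077) over 5 arrays and -1.37 (SE 1.03) over 6. MRPL13, a homologue of bacterial L13, differed by -0.10 (SE 0.094) and MRPL32, whose processing by a mitochondrial protease is needed for ribosome assembly in yeast and mouse, by -0.072 (SE 0.089), both over 5 arrays. None of these passed (limma adjusted p = 0.9998 for each without siPGC1alpha 1). Over 6 arrays 3 members, MRPL37, MRPL13 and MRPS9, lay below every control on all siPGC1alpha arrays, against 1.85% of all genes.

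In the small subunit MRPS17 and MRPS5, homologues of bacterial S17 and S5, followed MRPS28 among the positive differences. MRPS17 read 8.70, 8.56 and 8.70 on the control arrays, 8.78 and 8.89 on siPGC1alpha 2 and 3, and 7.51 on siPGC1alpha 1. MRPS5 read 8.07, 8.12 and 7.95 on the control arrays, 8.20 and 8.16 on siPGC1alpha 2 and 3, and 5.90 on siPGC1alpha 1. In both, siPGC1alpha 2 and 3 lay above every control and siPGC1alpha 1 below, with differences over 5 arrays of 0.18 (SE 0.084) and 0.14 (SE 0.083). RefSeq names 6 pseudogenes of MRPS17 and 2 of MRPS5. MRPS23, a mitochondria-specific protein, differed by 0.094 (SE 0.092). On the negative side were MRPS9, a homologue of bacterial S9, with -0.088 (SE 0.074), the mitochondria-specific MRPS22 with -0.10 (SE 0.085) and MRPS25 with -0.10 (SE 0.10), and MRPS30 with -0.021 (SE 0.080). MRPS9 alone of these 4 lay below every control on both siPGC1alpha 2 and 3.

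The S18 paralogues lay close to their controls on siPGC1alpha 2 and 3. MRPS18A read 10.18, 10.17 and 10.29 on the control arrays, 10.32 and 10.25 on siPGC1alpha 2 and 3, and 9.24 on siPGC1alpha 1. MRPS18B read 10.04, 10.15 and 10.13 on the control arrays, 10.21 and 10.06 on siPGC1alpha 2 and 3, and 7.58 on siPGC1alpha 1. MRPS18C read 8.38, 7.98 and 8.03 on the control arrays, 8.10 and 8.21 on siPGC1alpha 2 and 3, and 5.54 on siPGC1alpha 1. Each gene's siPGC1alpha 2 and 3 values overlapped its controls, with differences of 0.068 (SE 0.078), 0.028 (SE 0.084) and 0.026 (SE 0.13). On siPGC1alpha 1 all 3 lay below every control array. RefSeq names 6 pseudogenes of MRPS18C, 2 of MRPS18B and 1 of MRPS18A.

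**Figure D4:**
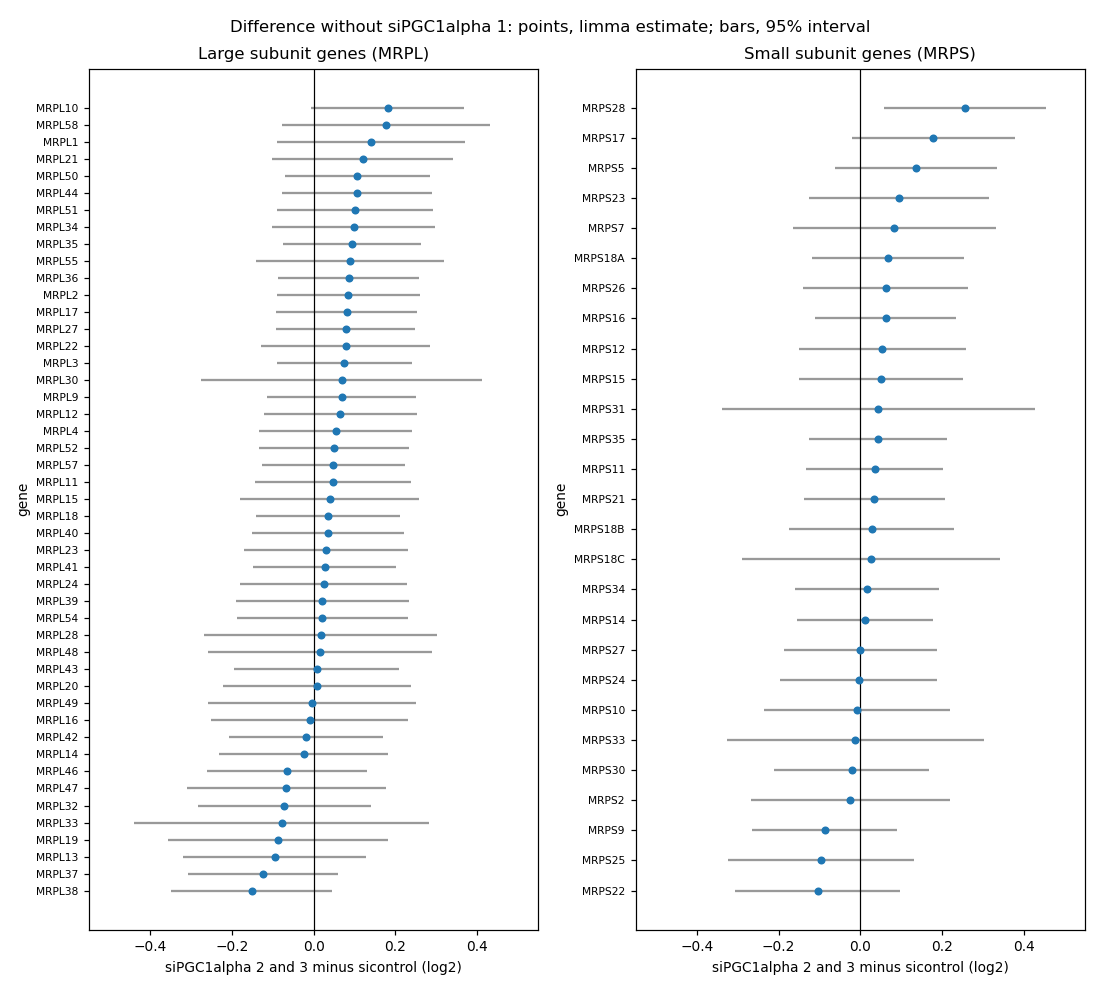
Difference between siPGC1alpha 2 and 3 and the 3 controls for each mitochondrial ribosomal protein gene (horizontal axis, log2), without siPGC1alpha 1, with the limma estimate as a point and its 95% interval as a bar. Every interval lies between -0.44 and 0.45, and that of MRPS28 (0.057 to 0.45) alone leaves out 0.

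The intervals were taken gene by gene and reflect the spread between these arrays. They do not bound how far a member could respond to less PGC-1alpha. Without siPGC1alpha 1 the 95% interval lay inside 0.5 on the log2 scale in both directions for all 74 members, against 89.7% of all genes, and its median half-width was 0.20. Over 6 arrays the median half-width was 1.32. The groups did not overlap for 14 members in the higher direction without siPGC1alpha 1, 9 of 47 large and 5 of 27 small subunit genes, against 11.3% of all genes. In the lower direction 4 did not overlap, 3 large and 1 small, against 8.42%. The differences of siPGC1alpha 2 and of siPGC1alpha 3 from the control mean had the same sign for 39 members upward and 9 downward, and opposite signs for 26. Both arrays were set against the same controls, so these signs are not independent.

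By descent and by promoter letters the members' medians on siPGC1alpha 2 and 3 ran from -0.0045 to 0.049. The median difference was 0.049 for the 46 genes with a bacterial homologue and 0.021 for the 27 specific to mitochondria. Members with the ETS core had a median of 0.030 and the 38 without it 0.035. With the NRF1 letters it was 0.039, against 0.034 without them, and with the YY1 letters -0.0045 against 0.035. Members with the ERRalpha letters, 3 in number, had 0.034. No test was made over these classes.

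On siPGC1alpha 1 the members read far lower than on any other array. The median difference from the control mean was -1.69 for the large subunit and -2.15 for the small, where that of all genes was 0.61. As means over the genes the subunits lay closer, at -1.73 and -1.87. With MRPS18A and MRPS30 counted in the large subunit the means were -1.78 and -1.79, so the gap depended on the summary used. Of the 74 members 64 lay below every control array, 40 large and 24 small subunit genes, against 36.8% of all genes. Above every control lay 8, against 60.0%. This is 1 array, so the differences have no replicate check and no test was made on them.

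Members were spread widely on that array, from -5.91 to 1.20, and the subunits overlapped throughout. In the large subunit MRPL51, MRPL30 (a homologue of bacterial L30) and MRPL20 (a homologue of L20) were farthest below. MRPL51 read 11.24, 11.12 and 11.12 on the control arrays, 11.23 and 11.29 on siPGC1alpha 2 and 3, and 5.24 on siPGC1alpha 1. MRPL30 read 8.73, 8.33 and 8.44 on the control arrays, 8.42 and 8.71 on siPGC1alpha 2 and 3, and 3.54 on siPGC1alpha 1. MRPL20 read 9.77, 9.57 and 9.70 on the control arrays, 9.60 and 9.78 on siPGC1alpha 2 and 3, and 4.89 on siPGC1alpha 1. On siPGC1alpha 1 these genes lay -5.91, -4.96 and -4.79 from their control means, while siPGC1alpha 2 and 3 stayed near the controls. MRPL30 read below the negative control median of 3.79 on siPGC1alpha 1, so background limits its difference, and this order depends on the control level. The highest were MRPL55, MRPL10 and MRPL38, which lay 0.72, 0.71 and 0.59 above, and MRPL12 lay 0.14 above.

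Among the MRPS genes, MRPS10, MRPS30, whose protein sits in the large subunit, and MRPS27, a protein with pentatricopeptide repeats, were farthest below the controls. MRPS10 read 9.27, 9.06 and 9.03 on the control arrays, 9.14 and 9.08 on siPGC1alpha 2 and 3, and 4.09 on siPGC1alpha 1. MRPS30 read 10.30, 10.38 and 10.31 on the control arrays, 10.25 and 10.38 on siPGC1alpha 2 and 3, and 5.43 on siPGC1alpha 1. MRPS27 read 9.49, 9.39 and 9.41 on the control arrays, 9.38 and 9.49 on siPGC1alpha 2 and 3, and 5.24 on siPGC1alpha 1. Their differences on siPGC1alpha 1 were -5.03, -4.90 and -4.19. The MRPS10 value was near the negative control median of 3.79 on that array. MRPS34 and MRPS26, both specific to mitochondria, went the other way. MRPS34 read 9.39, 9.38 and 9.43 on the control arrays, 9.37 and 9.46 on siPGC1alpha 2 and 3, and 10.60 on siPGC1alpha 1. MRPS26 read 8.003, 8.18 and 8.11 on the control arrays, 8.20 and 8.12 on siPGC1alpha 2 and 3, and 9.22 on siPGC1alpha 1. These lay 1.20 and 1.12 above the control mean, and MRPS31 lay 0.20 above it but within its control range. With subunits taken by symbol, all 16 small subunit genes with a bacterial homologue lay below every control, and 7 of the 10 specific to mitochondria did. In the large subunit 26 of 30 with a bacterial homologue and 14 of 17 specific to mitochondria did, against 36.8% of all genes, and no difference between these classes was tested.

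Genes with bright controls read low on siPGC1alpha 1 in general, so the members were set beside genes of like control level. Among genes with a control mean from 8 to 9 the 24 members had a median difference of -1.83, against -0.54 over 2896 genes. From 9 to 10 it was -2.19 for 23 members and -1.37 over 2074 genes. At 10 and over it was -1.69 for 17 members and -2.16 over 1581 genes. The members thus lay below the gene medians in the first 2 classes and above that of the brightest. The brightest class has no upper limit: its genes reached 13.96 and its members 11.36, so control level was not matched within it. From 7 to 8 the 8 members had -0.90 against 0.58. Across the members the difference on siPGC1alpha 1 correlated with the control mean at a Pearson r of -0.246 (n = 74 genes, all read on the same arrays), against -0.629 across all genes.

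**Figure D5:**
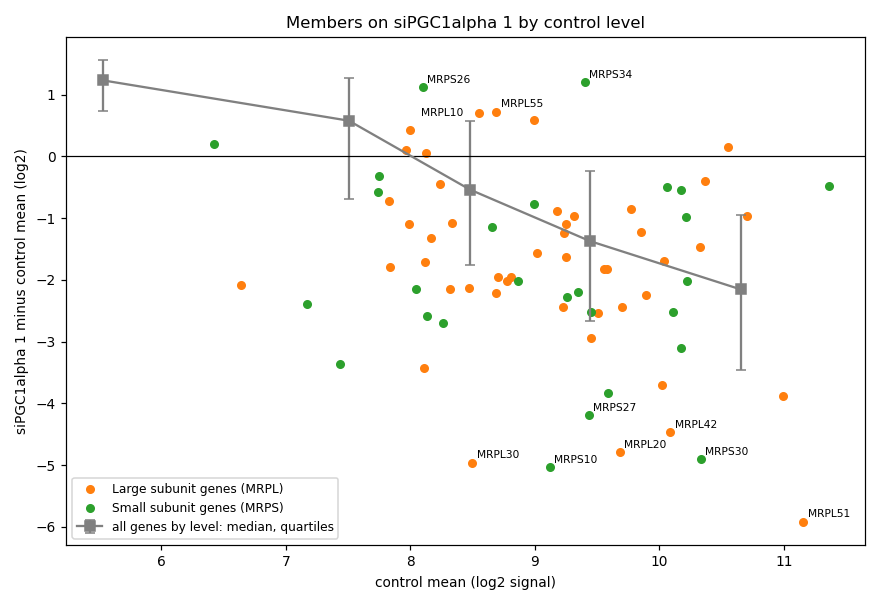
Difference of siPGC1alpha 1 from the control mean (vertical axis, log2) against the control mean (horizontal axis, log2 signal) for large subunit genes (orange) and small subunit genes (green), with the median and quartiles of all genes in 5 classes of control level in grey. Members run from -5.91 (MRPL51) to 1.20 (MRPS34), and those at a control level from 8 to 9 have a median of -1.83 where all genes of that level have -0.54.

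Other measures moved on the same array. Markers of the mesenchymal line had a median difference of -2.38 on siPGC1alpha 1, those of luminal or epithelial cells 1.18 with 8 of 10 above every control, and those of leukocytes, endothelium, red cells and liver 1.28 with 11 of 11 above, where 60.0% of all genes were. The first and the last of these medians were near those of genes of like level, which were 1.23 over the 7972 genes with a control mean under 7 and -2.16 at 10 and over. The median level of the leukocyte, endothelial, red cell and liver markers was 5.92 to 6.25 on the control arrays, 7.50 on siPGC1alpha 1 and 5.70 and 5.96 on siPGC1alpha 2 and 3. For the luminal or epithelial markers it was 6.90 to 7.21 on the controls, 7.57 on siPGC1alpha 1 and 7.05 and 7.22 on the other siPGC1alpha arrays. PTPRC, which marks leukocytes, read 5.97 on siPGC1alpha 1 against a control mean of 4.49, and ALB, albumin, 6.56 against 5.49. ERCC spike-in probe sets read a median of 6.50 against 5.04 to 5.11. The part of these measures in the members' low values on siPGC1alpha 1 was not tested, and in bulk samples fewer cells of a type and less RNA per cell cannot be told apart.

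Members whose promoters were rich in G and C read nearer to the controls on siPGC1alpha 1. The 22 members with the highest promoter GC content (64.3 to 80.7%) had a median difference of -0.98, the 22 in the middle -2.11 and the 22 with the lowest (43.3 to 57.0%) -2.01. Across these 66 genes, which share 1 array, Pearson's r was 0.335, whereas it was -0.133 over the 14250 genes with a promoter. The members with the ETS core, such as MRPS10 and MRPS34 above, had a median of -2.05 and those without it -1.45. This order was not particular to the ETS core. With and without the letters, the medians were -2.13 and -1.63 for YY1 and -2.45 and -1.63 for the E-box. They were -2.01 and -1.83 for ERRalpha, and the other way for NRF1, at -1.73 and -1.89. The part of base composition in these values was not tested.

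Over all 6 arrays most members lay below their controls, with wide errors. The large subunit had a median of -0.55 and the small of -0.65, with 0.19 over all genes. Of the members 64 lay below 0 and 10 above, from -1.90 (MRPL51) to 0.41 (MRPS26). By limma 0 members passed at an adjusted p under 0.05 (background 0%, lowest adjusted p of a member = 0.663), and 0 had an unadjusted p under 0.05, where 0.0113% of all genes had one in the higher and 0.00565% in the lower direction. The sign of the subunit medians turned when siPGC1alpha 1 was left out, to 0.039 and 0.034. With array weights they were 0.050 and 0.033, but that fit did not converge.

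Among genes that work with the mitochondrial ribosome, none passed the test on siPGC1alpha 2 and 3. Ribosomal proteins with other names were represented by 4 of 5 listed genes: DAP3, of the small subunit, differed by 0.052 (SE 0.079), PTCD3 by 0.067 (SE 0.11), CHCHD1 by 0.010 (SE 0.069) and GADD45GIP1, of the large subunit, by 0.051 (SE 0.076). Translation factors (14 of 17 genes) had a median of 0.058, including the release factors MTRF1 at 0.20 (SE 0.086) and MTRF1L at 0.15 (SE 0.077) and the elongation factor partner TSFM at -0.12 (SE 0.077). Genes of ribosome assembly and rRNA modification (23 of 26) had a median of 0.015. Among them MTERF4, which brings the methyltransferase NSUN4 to the ribosome, differed by -0.20 (SE 0.070) and MRM3, an rRNA methyltransferase, by 0.19 (SE 0.081). In each of these lists 0 genes passed in either direction by limma, in either fit, where 0% of all genes did.

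The factors tied to transcription of mitochondrial protein genes were represented by 7 of 9 listed genes, and 0 passed in either direction. NRF1 differed by 0.037 (SE 0.076), GABPA, the DNA-binding subunit of GABP, by 0.041 (SE 0.085) and ESRRA, which encodes ERRalpha, by -0.0036 (SE 0.081). PPRC1, a coactivator related to PGC-1alpha, differed by 0.12 (SE 0.077) and PPARGC1B by -0.014 (SE 0.087). On siPGC1alpha 1 the translation factors and assembly genes lay at medians of -2.31 and -1.96, near those of the members, and the 7 transcription factors and coactivators at -0.30. These lists were not matched for control level, with median levels of 8.93, 8.66 and 7.84. On that array all genes with control means from 7 to 8 had a median of 0.58, and those from 8 to 9 of -0.54. MTIF2, the initiation factor, lay -3.95 from its control mean there and GADD45GIP1 0.61.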

How the data were processed

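Per the labels' protocols, total RNA of 6 samples was column-purified and labelled with a low-input kit for Affymetrix arrays. The deposited table holds 1 log2 value per probe set and array (the log scale is inferred from the range). What the authors did to correct background, summarise and normalize is not stated in any source used here. A further table with 6 columns that match no sample was not used. Of 24320 probe sets, a platform annotation table named 17709 with 1 gene symbol, 0 with several and left 6611 unnamed; all 17709 gene identifiers matched RefSeq (GRCh38.p14). The probe set with the highest mean was kept, which gave 17687 genes. Dim genes stayed in, detection calls were not used, and the number of arrays limits the precision.

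Groups were compared with limma 3.58.1 (R 4.3.3; lmFit, plain eBayes, no covariates, two-sided) over all genes, with Benjamini-Hochberg adjustment, a threshold of 0.05 and 95% intervals, once over 6 arrays and once without siPGC1alpha 1. The fit without siPGC1alpha 1 was tried on simulated data with a change larger than any member's difference in that fit. This does not cover changes of the members' size or the fit over 6 arrays. Differences are siPGC1alpha minus sicontrol. Subunit values are medians over genes, described without a test, with subunits taken by symbol unless stated. Members, lists and rules were chosen with earlier results of these data known. Named members had, in each subunit, the 4 smallest unadjusted p in each direction without siPGC1alpha 1, the 3 highest and lowest control means, or the 3 largest differences each way on siPGC1alpha 1, or were fixed by role (MRPL10, MRPL11, MRPL12, MRPL58, MRPS12, MRPS18A, MRPS18B, MRPS18C, MRPS30). Promoters shown, and other members named, were chosen after their values were seen. Alternatives were quantile normalization, centring, dim-gene filters, probe set means, trended robust moderation, array weights, a replicate block, a threshold of 0.1, subunits by structure, means for medians, and each array left out.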

Additional observations from a re-analysis of the deposited data

Results flagged for a closer look

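The ERCC spike-in probe sets, 63 in number and outside the gene comparison, read a median of 6.50 on siPGC1alpha replicate 1, above the 5.11 of the highest control array. The 612 negative control probe sets read 3.79 there, above 3.44. On siPGC1alpha 2 and 3 the ERCC medians were 5.05 and 5.06. The mitochondrial ribosomal protein genes read low on the same array, at medians of -1.69 and -2.15 from the control mean, and a link between them was not tested.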

How the results depend on the processing

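Under every alternative 0 members passed by limma, in both fits. Over 6 arrays the large and small subunit medians of -0.55 and -0.65 and their difference of 0.10 became -0.51, -0.71 and 0.20 after quantile normalization. With array weights, whose fit did not converge, they were 0.050, 0.033 and 0.018, and 1639 of all genes but 0 members passed. As means, the small subunit had -0.60 and the difference was 0.047. With each array left out in turn they ranged over -0.85 to 0.039, -1.02 to 0.034 and 0.0055 to 0.20, and among these the sign of both medians turned only without siPGC1alpha 1; the lowest values were those without siPGC1alpha 2 or 3. Without siPGC1alpha 1, the ranges with a further array left out were 0.035 to 0.057, 0.0062 to 0.045 and -0.0017 to 0.049; the lowest small subunit median and the largest difference were those without sicontrol 2, and the subunits changed order without sicontrol 3. Leaving out siPGC1alpha 2 or 3 there leaves 1 siPGC1alpha array, assumed to vary like the controls. The cause of these shifts was not tested. Of 38 named members without siPGC1alpha 1, 0 to 9 changed sign under an alternative, and none of these passed. Over 6 arrays 21 did without siPGC1alpha 1 and 22 with array weights.

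The titles number the samples 1 to 3 in both groups. Deviations of same-numbered arrays from their group means had r over all genes of -0.25, -0.18 and -0.086. The siPGC1alpha group mean holds siPGC1alpha 1, which stood apart, so these values cannot show whether the numbers pair the arrays. With the replicate block 0 members passed in either fit, and the subunit medians were -0.55 and -0.65 over 6 arrays and 0.057 and 0.029 without siPGC1alpha 1. Without a detection call, signal over background was not judged gene by gene.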
